A study of Mus musculus with 36 samples.

Results

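The genes described here were interferon-beta (Ifnb1), the chains of the type I interferon receptor (Ifnar1, Ifnar2), the chains of the type II receptor (Ifngr1, Ifngr2) and the Janus kinases that signal from them (Jak1, Jak2, Tyk2). They were chosen by gene symbol from the count table and are 8 of its 54532 genes. RNA was sequenced from bone marrow–derived macrophages (BMDMs) of female C57BL/6 mice aged 13 to 17 weeks, after 7 days of culture with M-CSF. WT cells came from Bmal1 flox/flox mice without Cre (3 libraries per treatment), and KO cells from LysM-Cre;Bmal1 flox/flox mice, in which Cre is expressed from a gene of myeloid cells (6 per treatment). Both genotypes therefore carry the floxed allele, and BMAL1 (gene Arntl) is a core transcription factor of the circadian clock. Cells were treated for 6 h with DMSO (vehicle), 100 µM CCM (a small molecule that binds a PAS domain of BMAL1), 100 nM LPS (bacterial lipopolysaccharide, the ligand of TLR4), or LPS with CCM. All 36 libraries were used, in 8 groups.

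Macrophages that sense LPS through TLR4 make interferon-beta by way of the adaptor TRIF, the kinase TBK1 and the factors IRF3 and NF-κB. Secreted interferon-beta binds IFNAR1 and IFNAR2 on the same and neighbouring cells, and interferon-gamma, made mainly by lymphocytes, binds IFNGR1 and IFNGR2. TYK2 sits on IFNAR1, JAK1 on IFNAR2 and IFNGR1, and JAK2 on IFNGR2, and these kinases phosphorylate STAT factors, which then switch on interferon-stimulated genes.

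All 8 genes had a RefSeq promoter entry (GRCm38.p6, 250 bases before to 50 after the start). The 200 bases before the RefSeq start are shown for Ifnb1, Ifngr1, Jak2 and Tyk2, the genes that passed the test for CCM under LPS in WT. The stretch of Ifnb1 lies at chr4:88522795-88522994, minus strand, that of Ifngr1 at chr10:19591749-19591948, plus strand, that of Jak2 at chr19:29251603-29251802, plus strand, and that of Tyk2 at chr9:21131276-21131475, minus strand. Each is written 5′ to 3′ on the gene's strand, and capitals mark matches to the motifs described after them.
Ifnb1: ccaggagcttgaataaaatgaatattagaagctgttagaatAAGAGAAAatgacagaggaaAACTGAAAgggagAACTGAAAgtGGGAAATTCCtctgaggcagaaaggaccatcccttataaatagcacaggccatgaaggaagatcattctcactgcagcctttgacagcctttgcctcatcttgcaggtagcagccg
Ifngr1: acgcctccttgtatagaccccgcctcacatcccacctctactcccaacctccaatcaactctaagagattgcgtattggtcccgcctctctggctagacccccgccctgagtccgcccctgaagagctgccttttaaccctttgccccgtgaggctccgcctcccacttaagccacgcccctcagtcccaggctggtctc
Jak2: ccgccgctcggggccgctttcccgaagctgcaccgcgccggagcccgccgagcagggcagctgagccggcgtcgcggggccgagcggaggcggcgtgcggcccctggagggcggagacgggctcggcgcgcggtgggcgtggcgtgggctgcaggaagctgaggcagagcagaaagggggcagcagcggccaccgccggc
Tyk2: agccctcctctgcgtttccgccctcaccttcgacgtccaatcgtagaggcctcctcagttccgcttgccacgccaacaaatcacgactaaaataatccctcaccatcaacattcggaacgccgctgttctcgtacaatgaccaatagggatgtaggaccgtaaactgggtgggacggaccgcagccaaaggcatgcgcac

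The motifs searched on both strands of the whole window were a κB site (GGG, any 3 bases, then TTCC), an IRF core (AANNGAAA), a GAS motif (TTCNNNGAA) and the E-box bound by BMAL1 with CLOCK (CACGTG). In Ifnb1 there were 3 IRF cores, starting 159, 139 and 126 bases before the start, and 1 κB match that starts at base 116 before it. None of these 4 matches overlaps another. Of the other members, Ifngr2 held 1 κB match on the minus strand, and Ifnar1 and Ifnar2 held 1 GAS match each. Ifngr1, Jak1, Jak2 and Tyk2 held none of the motifs, and no member held the E-box in this window. Among all 32851 promoter entries, 5.56% held the κB motif, 23.9% the IRF core, 8.3% the GAS motif and 7.15% the E-box. A match describes the letters and not a bound site.

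Total counts per library were 13469262 to 28288923 (median 19951421). The 4 KO libraries of replicate 6 stood apart. Against the other libraries of the same group, their genes under 2000 bases were higher (median log2 deviation 0.49 to 0.58) and their genes of 5000 bases or more lower (-0.81 to -0.49). KO LPS+CCM replicate 5 leaned the same way (0.36 and -0.17), whereas the other libraries lay between -0.04 and 0.27 for the long genes. Of the members, Ifnar1, Jak1, Jak2 and Tyk2 are over 5000 bases long and Ifnb1 is 750 bases. For LPS and for CCM under LPS, KO changes of several members are therefore also given without replicate 6 or without replicates 5 and 6. Most other KO values, those for CCM alone and for KO against WT among them, are given only with these libraries. Over all treatments together, Arntl was 7.52 to 12.9 CPM in WT (mean 9.95) and 2.02 to 10.8 CPM in KO (mean 6.84), so these pooled ranges overlapped. The 4 libraries of KO replicate 2, at 7.76 to 10.8 CPM (mean 9.23), lay within the WT range. Overlap within a treatment is not given, and deletion of the gene was not tested. Macrophage markers such as Csf1r (1232 to 2356 CPM) were high throughout. The summed level of 9 neutrophil markers was 425 to 1163 CPM over all libraries and 1112 to 1163 CPM in KO replicate 6. Of these, S100a9 (135 to 479 CPM), S100a8 (97.4 to 405 CPM), Ngp (97.0 to 275 CPM), Ltf (20.1 to 170 CPM) and Camp (7.996 to 49.6 CPM) were present in all libraries and Ly6g was at most 0.562 CPM. Markers of natural killer cells summed to 0 to 2.92 CPM, of T cells to 0.671 to 8.99 CPM, of plasmacytoid dendritic cells to 1.32 to 7.44 CPM and of conventional dendritic cells to 0.920 to 6.07 CPM. Fibroblast markers summed to 276 to 1449 CPM, mostly from Col1a1 (118 to 776 CPM) and Col1a2 (134 to 652 CPM). The part of these cells and of RNA length in the results was not tested, and in bulk RNA fewer cells of a type cannot be told apart from less RNA per cell.

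**Figure D1:**
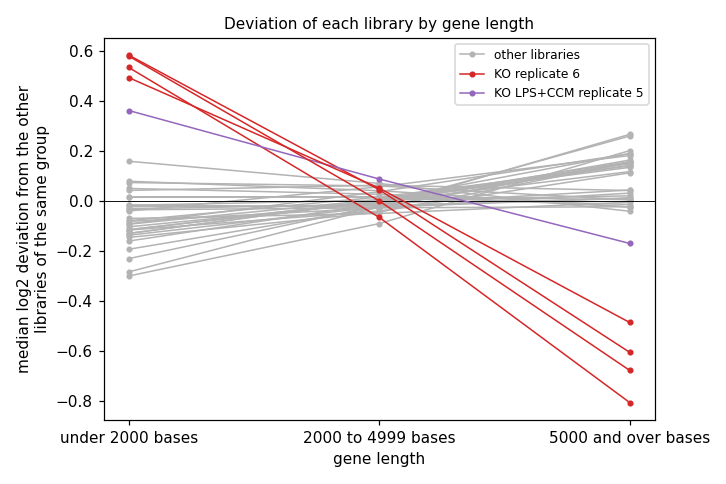
Median log2 deviation of each of the 36 libraries from the other libraries of its group (vertical axis) for genes under 2000, of at least 2000 but under 5000, and of 5000 or more bases (horizontal axis), 1 line per library. The 4 KO libraries of replicate 6 run from between 0.49 and 0.58 for short genes to between -0.81 and -0.49 for long genes, and KO LPS+CCM replicate 5 leans the same way.

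The effect of LPS was read first. It moved every member in both genotypes: Ifnb1, Ifnar1, Ifnar2, Ifngr2, Jak1, Jak2 and Tyk2 rose and Ifngr1 fell, 8 of 8 at an adjusted p of at most 0.05 in edgeR's quasi-likelihood test with Benjamini-Hochberg adjustment over all genes tested. LPS moved much of the transcriptome. The same test called 63% of genes tested in WT (30.6% higher, 32.4% lower) and 47.1% in KO (22.4% higher, 24.7% lower), and the groups did not overlap for 69% of genes in WT and 30.6% in KO. Values are CPM (read counts scaled to library size, by TMM factors over all 36 libraries), and ± after a log2 fold change is its SE. With library totals alone in place of TMM, the median over all genes for LPS against vehicle was -0.47 in WT and -0.44 in KO, against -0.05 in both with TMM, so the log2 changes below hold on the TMM scale. With library totals calls over all genes also shifted to 24.04% higher in WT and 24.2% in KO, from 48.6% and 47.6%. The direction of every member was kept with library totals, and 1 call was lost, that of Jak1 in KO (log2 fold change 0.17, adjusted p = 0.590).

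Ifnb1 (chr4:88522025-88522774, minus strand, in the mm10 build as all gene coordinates here, a gene without introns) had almost no counts without LPS. It had 0 counts in the 3 WT vehicle, the 3 WT CCM and the 6 KO CCM libraries, which allows up to 0.0367, 0.0444 and 0.0231 CPM for these groups (3 counts over the group). In KO vehicle, 3 counts came from replicate 4 and 0 from the other 5 libraries. With LPS it was 1.95, 1.30 and 1.69 CPM in the WT libraries, on 33, 30 and 42 counts. In KO LPS libraries the lowest, median and highest values were 0.977, 1.47 and 3.24 CPM. No LPS library overlapped a vehicle library. Pooled over libraries, Ifnb1 in WT LPS was 44.1-fold the ceiling of 0.0367 CPM for WT vehicle. In KO the ratio of LPS to vehicle was 76.4, with a 95% exact binomial interval of 25.7 to 374 that covers counting error only. With CCM in both groups, Ifnb1 with LPS was 8.17-fold the ceiling in WT (0.0444 CPM) and 33.3-fold that in KO (0.0231 CPM). Folds over a ceiling leave out the counting error of the LPS group. The KO ceiling rests on 6 libraries and that of WT on 3, so these WT and KO folds are not comparable. Even so Ifnb1 stayed the lowest member, at 2.20 ± 0.434 CPM per kb (SD, n = 3) in WT. The summed level of 4 plasmacytoid dendritic cell markers was 1.92 to 2.73 CPM in WT vehicle and 5.34 to 7.44 CPM in WT LPS. That of 5 T cell markers was 0.671 to 1.97 CPM and 3.74 to 4.95 CPM, so neither set overlapped between the groups. Lck had the highest median of the T cell set over all libraries (2.26 CPM, Cd3e 0.114 CPM). In the plasmacytoid set Cox6a2 (1.44 CPM) and Ccr9 (1.13 CPM) had the highest medians. Siglech was at most 0.549 CPM, and Klk1 was at 0 in 34 libraries. Markers of natural killer cells summed to 0.843 to 1.44 CPM and 0.304 to 0.709 CPM, a fall without overlap. B cell markers (3.39 to 4.37 and 2.17 to 3.31 CPM) also fell. So did neutrophil markers (666 to 730 and 516 to 562 CPM), whereas conventional dendritic markers rose (1.73 to 3.20 and 3.54 to 3.996 CPM). The part of these sets in the rise of Ifnb1 was not tested.

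**Figure D2:**
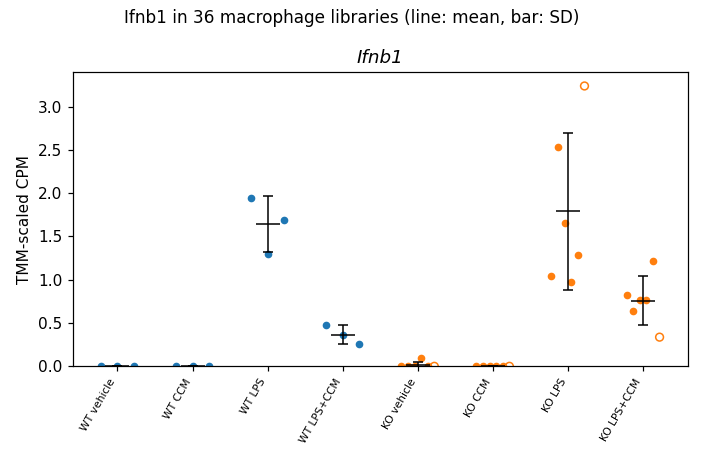
Ifnb1 in TMM-scaled CPM (vertical axis) in the 36 libraries by group, 1 point per library, with the mean (line) and SD (bar), and KO replicate 6 as open circles. Unstimulated groups lie at or near 0, WT LPS between 1.30 and 1.95, and WT LPS+CCM between 0.261 and 0.474.

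The type I receptor chains rose together. Ifnar1 (chr16:91485238-91507441, plus strand), the low-affinity chain, was 162, 162 and 170.0 CPM in WT vehicle and 301, 314 and 311 CPM in WT LPS (log2 fold change 0.93 ± 0.05 SE). Ifnar2 (chr16:91372783-91405589, plus strand), the high-affinity chain, was 100.3, 94.1 and 90.5 CPM and then 202, 203 and 204 CPM (1.12 ± 0.05). Neither pair of groups overlapped. In KO the log2 changes were 0.92 ± 0.13 and 1.10 ± 0.12, and both chains were higher with LPS in 6 of 6 pairs of same-numbered libraries.

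The type II receptor chains moved in opposite directions. Ifngr1 (chr10:19591949-19610229, plus strand), the ligand-binding chain, fell from 162, 149.6 and 153 CPM to 74.2, 80.7 and 84.5 CPM in WT, and its log2 value fell by 0.93 ± 0.06 SE. Ifngr2 (chr16:91547072-91565623, plus strand), the chain that brings in JAK2, rose from 120.5, 115 and 111 CPM to 239, 247 and 234 CPM (1.08 ± 0.05). In KO the lowest, median and highest values of Ifngr1 were 117, 156 and 165 CPM with vehicle and 76.0, 85.9 and 88.8 CPM with LPS. There it fell by 0.83 ± 0.08 and Ifngr2 rose by 1.10 ± 0.11, and neither pair of groups overlapped. The per-length ratio of Ifngr1 to Ifngr2 was thus 1.77 ± 0.0515 in WT vehicle and 0.440 ± 0.0341 in WT LPS (SD, n = 3), and 1.70 ± 0.323 and 0.439 ± 0.0486 in KO (SD, n = 6). Both chains were measured in the same libraries, so the ratio does not depend on how libraries are scaled. Ifnar2, Il10rb, Ifnar1 and Ifngr2 lie in that order on chromosome 16, all on the plus strand, and Il10rb starts 574 bases after the end of Ifnar2. Il10rb, a chain of the interleukin-10 and interferon-lambda receptors, did not pass (log2 fold change 0.10 in WT, adjusted p = 0.155), between neighbours that rose.

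Of the kinases, Jak2 changed most. Jak2 (chr19:29251828-29313080, plus strand) was 52.8, 49.2 and 58.8 CPM in WT vehicle and 641, 615 and 645 CPM in WT LPS, a rise of 12.05-fold (log2 fold change 3.59 ± 0.08 SE). In KO its lowest, median and highest values were 23.4, 55.5 and 62.1 CPM with vehicle and 282, 634 and 701 CPM with LPS (3.51 ± 0.25). Tyk2 (chr9:21104068-21131243, minus strand) went from 87.8, 88.2 and 89.5 CPM to 254, 224 and 229 CPM in WT (1.44 ± 0.06). In KO it went from a lowest, median and highest value of 63.7, 85.7 and 93.0 CPM to 140.4, 218 and 259 CPM (1.38 ± 0.13). Jak1 (chr4:101152367-101265282, minus strand) changed least, from 194, 212 and 227 CPM to 311, 309 and 321 CPM in WT (0.60 ± 0.07, adjusted p = 4.08e-05). In KO, Jak1 had a log2 change of 0.57 ± 0.21 (edgeR adjusted p = 0.0375) and its groups overlapped, since replicate 6 was at 96.1 CPM with vehicle and 161 CPM with LPS. Without KO replicate 6 the change was 0.54 (adjusted p = 1.68e-06), and without any 1 of replicates 1 to 5 the adjusted p rose to between 0.0792 and 0.121. Same-numbered KO libraries deviated together for LPS. With a block on that number the Jak1 change was 0.58 (edgeR adjusted p = 5.04e-07), and with voom it was 0.52 (adjusted p = 5.10e-07). The other KO log2 changes without replicate 6 were 0.89 for Ifnar1, 1.08 for Ifnar2, -0.88 for Ifngr1, 1.12 for Ifngr2, 3.51 for Jak2 and 1.41 for Tyk2, all called. There Jak2 was at 57.0 ± 3.36 CPM with vehicle and 649 ± 31.8 CPM with LPS in KO (SD, n = 5). Counts of the genes that overlap Jak1 (Raver2, Gm24468 and Gm12785) came to at most 0.151% of its own.

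These changes turned the order of the members by level per length (CPM per kb of the gene length in the table). In WT vehicle Ifngr1 led (54.5 ± 2.33, SD, n = 3). Ifngr2 (30.7), Jak1 (29.2), Ifnar2 (28.5) and Ifnar1 (27.8) followed, and neighbours in this run overlapped between libraries. Tyk2 (12.9), Jak2 (10.7) and Ifnb1 came last and did not overlap. In WT LPS, Jak2 led (126 ± 3.17), followed by Ifngr2 (63.7), Ifnar2 (60.9), Ifnar1 (52.0), Jak1 (43.4), Tyk2 (34.3) and Ifngr1 (28.0), with no overlap between neighbours. The ratio of Jak2 to Jak1 per length was 0.365 ± 0.0290 in WT vehicle and 2.90 ± 0.0517 in WT LPS, and 0.368 ± 0.0142 and 2.83 ± 0.188 in KO. In KO the order of the means was the same for vehicle and for LPS, but with LPS all neighbours from Jak2 to Ifngr1 overlapped, replicate 6 included.

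**Figure D3:**
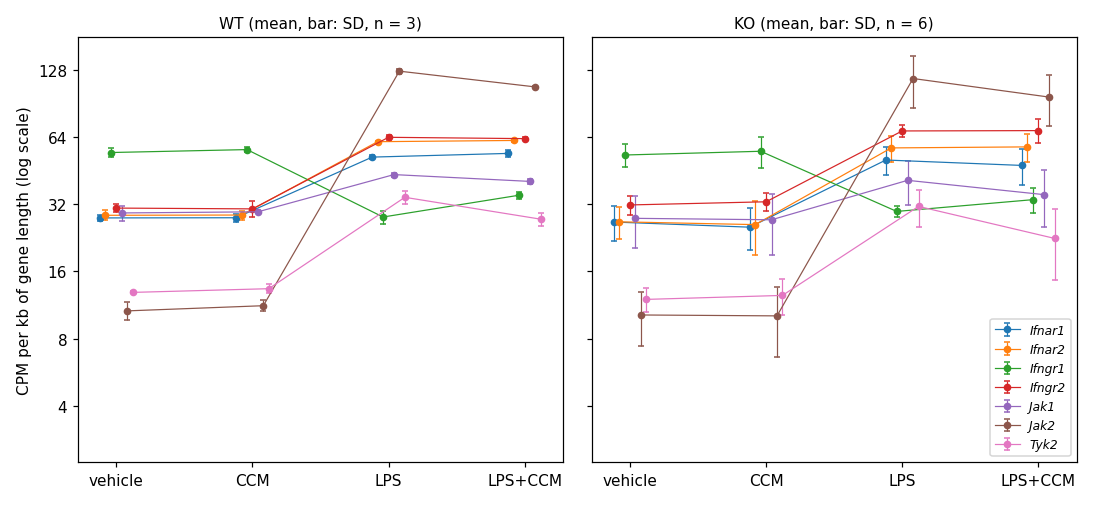
Level per length (CPM per kb, log axis) of the receptor chains and kinases in the 4 treatments, WT left and KO right, as mean and SD. Ifngr1 is the highest in unstimulated cells (54.5 in WT vehicle) and falls below the others with LPS, where Jak2 leads (126 in WT).

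The genes around the members mostly rose with LPS too, where 30.6% of all genes tested in WT and 22.4% in KO were called higher. Of the signal transducers, Stat2 (log2 fold change 3.31), Stat5a (1.85), Irf9 (1.73) and Stat3 (1.65) rose in WT, and Stat5b did not pass (0.11). Of 9 other receptor chains and kinases 7 rose, including Jak3 (0.85) and Il4ra (1.31), and Il6st, the shared chain of the interleukin-6 family, fell by 1.04. Of 12 negative regulators 10 rose, including Socs1 (3.08) and Socs3 (5.78), which block Janus kinases, and Ptpn6 (1.53), the phosphatase SHP-1. All 15 type I targets measured rose, and Cxcl10 went from 1.37 ± 0.668 to 1347 ± 52.3 CPM (SD, n = 3). In KO the counts that rose were 7, 10 and 15 for the receptor chains and kinases, the negative regulators and the type I targets. Of 15 genes that lead to Ifnb1, 12 rose in WT and 11 in KO. Tlr4 (-0.22) and Irf3 (0.19) did not pass in WT, and Jun fell by 1.67.

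The next question was whether CCM alone touched these genes. In unstimulated cells none of the 7 members tested passed in WT or in KO (edgeR), and at an unadjusted p under 0.05 the count was also 0 in both, as it was with DESeq2 at the adjusted threshold. Ifnb1 was below the filter on low counts there and was not tested. Log2 changes of the 7 lay between -0.002 and 0.09 in WT and between -0.09 and 0.05 in KO. Jak2, for example, was 56.7, 53.2 and 59.7 CPM with CCM and 49.2 to 58.8 CPM with vehicle in WT. For all 8 members the groups overlapped in both genotypes, whereas groups did not overlap for 15.4% of genes in WT and 0.42% in KO. The test called 0.057% of genes in WT and 0% in KO. Same-numbered KO libraries deviated together here, and with a block on that number 429 genes were called in KO in place of 0, and still no member.

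Under LPS, CCM lowered Ifnb1, Jak2 and Tyk2 and raised Ifngr1 in WT macrophages. Thus 4 of 8 members passed the test (1 higher, 3 lower), against 11.9% of genes called overall (4.15% higher, 7.78% lower). Ifnb1 had by far the largest change and Jak2 the smallest of the 4. Ifnar1, Ifnar2, Ifngr2 and Jak1 did not pass. With library totals in place of TMM the balance over all genes turned from 564 higher and 1057 lower to 1539 higher and 733 lower. The same 4 members were called in the same directions (log2 fold changes -2.06 for Ifnb1, -0.15 for Jak2, -0.24 for Tyk2 and 0.41 for Ifngr1, adjusted p from 0.00167 to 0.0345). Neutrophil markers summed to 441 to 524 CPM in WT LPS+CCM and 516 to 562 CPM in WT LPS, fibroblast markers to 545 to 658 and 458 to 639 CPM. The sum of 3 conventional dendritic cell markers (Flt3, Zbtb46, Xcr1) was lower without overlap, at 2.04 to 2.49 CPM in WT LPS+CCM and 3.54 to 3.996 CPM in WT LPS, and those of T cells (3.08 to 3.97 and 3.74 to 4.95 CPM) and plasmacytoid dendritic cells (4.92 to 5.74 and 5.34 to 7.44 CPM) overlapped. In KO the conventional dendritic sum was 2.58 to 6.07 CPM with LPS+CCM and 2.24 to 4.79 CPM with LPS. For all these markers, their part in these results was not tested.

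Ifnb1 was 0.474, 0.367 and 0.261 CPM in WT LPS+CCM, on 8, 7 and 5 counts, against 1.30 to 1.95 CPM with LPS alone. Each LPS+CCM library was below each LPS library. The log2 fold change was -2.14 ± 0.35 SE (edgeR adjusted p = 0.00322, lower in 3 of 3 pairs), and pooled counts of 105 and 20 gave a ratio of 4.47 (95% exact binomial interval 2.75 to 7.62, counting error only). At 20 counts in 3 libraries the interval is wide.

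Tyk2 was 203, 182 and 179 CPM with CCM against 254, 224 and 229 CPM with LPS alone (log2 fold change -0.32 ± 0.07 SE, edgeR adjusted p = 0.0125). Jak2 was 543, 536 and 537 CPM against 641, 615 and 645 CPM (-0.23 ± 0.04, adjusted p = 0.00587). Both were lower in 3 of 3 pairs without overlap, yet stayed well above their vehicle levels. Without WT LPS+CCM replicate 2 or 3 the adjusted p of Tyk2 was 0.0702 and 0.0502. Jak1 showed 291, 287 and 299 CPM against 311, 309 and 321 CPM, which do not overlap either, but its log2 change of -0.09 ± 0.04 missed the threshold (adjusted p = 0.193, and 0.0515 with the replicate block). Groups did not overlap for 30.1% of all genes tested in this comparison.

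Ifngr1 went the other way, with 101, 95.7 and 103 CPM with CCM against 74.2, 80.7 and 84.5 CPM with LPS alone (log2 fold change 0.33 ± 0.06 SE, edgeR adjusted p = 0.00540, higher in 3 of 3 pairs). It remained under its vehicle level of 149.6 to 162 CPM. The per-length ratio of Ifngr1 to Ifngr2 was 0.558 ± 0.0279 with LPS+CCM and 0.440 ± 0.0341 with LPS (SD, n = 3), and the libraries did not overlap. In level per length Ifngr1 (35.1 ± 1.29 CPM per kb) stood above Tyk2 (27.4 ± 1.94) with LPS+CCM and below it with LPS alone. The other chains differed little, with log2 changes of 0.06 ± 0.04 for Ifnar1, 0.03 ± 0.04 for Ifnar2 and -0.01 ± 0.04 for Ifngr2, whose sign turned with library totals alone (0.07).

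WT libraries of the same number deviated together in this comparison, so a replicate block was also fitted. With the block Ifnb1, Ifngr1, Jak2 and Tyk2 passed again, with adjusted p from 4.57e-06 to 0.000327, while 3220 genes in place of 1621 were called overall. In a fit of all 36 libraries, whose spread includes that of the KO libraries, 0 members and 17 genes passed. DESeq2 called Ifngr1, Jak2 and Tyk2 and gave no adjusted p for Ifnb1.

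In KO macrophages under LPS no member passed for CCM, against 0.112% of genes called (0.105% lower), and the groups of all 8 overlapped (1.37% of genes did not). At an unadjusted p under 0.05 there were 2, Ifnb1 and Tyk2, and DESeq2 also called 0. Ifnb1 had a lowest, median and highest value of 0.337, 0.764 and 1.22 CPM with LPS+CCM and 0.977, 1.47 and 3.24 CPM with LPS. It was lower in 6 of 6 pairs, but the groups overlapped and the adjusted p was 0.271 (log2 fold change -1.26 ± 0.37 SE). Replicate 6 held the highest LPS value and the lowest LPS+CCM value, and without it the log2 change was -0.84 (adjusted p = 0.202). Pooled counts gave a ratio of LPS to LPS+CCM of 2.24 in KO (interval 1.73 to 2.92, counting error only). Tyk2 (-0.50 ± 0.23, adjusted p = 0.616), Jak2 (-0.30 ± 0.22, adjusted p = 0.822) and Jak1 (-0.24 ± 0.21, adjusted p = 0.850) were also lower in 6 of 6 pairs, and Ifngr1 was higher in 5 of 6 (0.15 ± 0.10, adjusted p = 0.811). Not every pair of same-numbered libraries deviated together in this comparison, so the pair counts here are a description only. With a block on that number, as a check, edgeR adjusted p was 0.0611 for Jak2, 0.0632 for Tyk2 and 0.112 for Jak1. It was 0.119 for Ifnb1 and 0.291 for Ifngr1, so none passed. Ifngr1 was called with voom (log2 fold change 0.21, adjusted p = 0.0323). The lowest, median and highest values with LPS+CCM were 76.6, 162 and 222 CPM for Tyk2, 269, 517 and 617 CPM for Jak2, and 77.6, 101 and 105 CPM for Ifngr1. The 76.6 CPM of Tyk2 was in replicate 5, and the next lowest was replicate 6. Without KO replicates 5 and 6, a choice made after seeing the data, the log2 changes were -1.05 for Ifnb1, -0.34 for Tyk2, -0.28 for Jak2, -0.13 for Jak1 and 0.25 for Ifngr1, and none passed (adjusted p from 0.104 to 0.561).

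**Figure D4:**
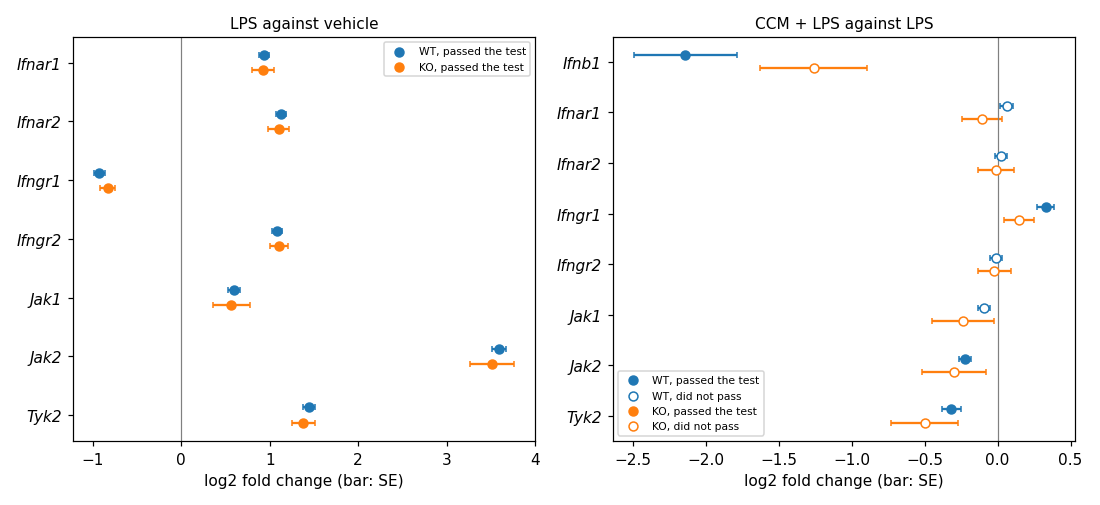
Log2 fold change with SE (horizontal axis) of each member for LPS against vehicle (left, without Ifnb1, which was at or near 0 counts with vehicle) and for CCM + LPS against LPS (right), WT blue and KO orange, filled where the adjusted p was at most 0.05. In the right panel the filled points are Ifnb1, Jak2 and Tyk2 below 0 and Ifngr1 above 0, all WT, and the KO points are all open.

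**Figure D5:**
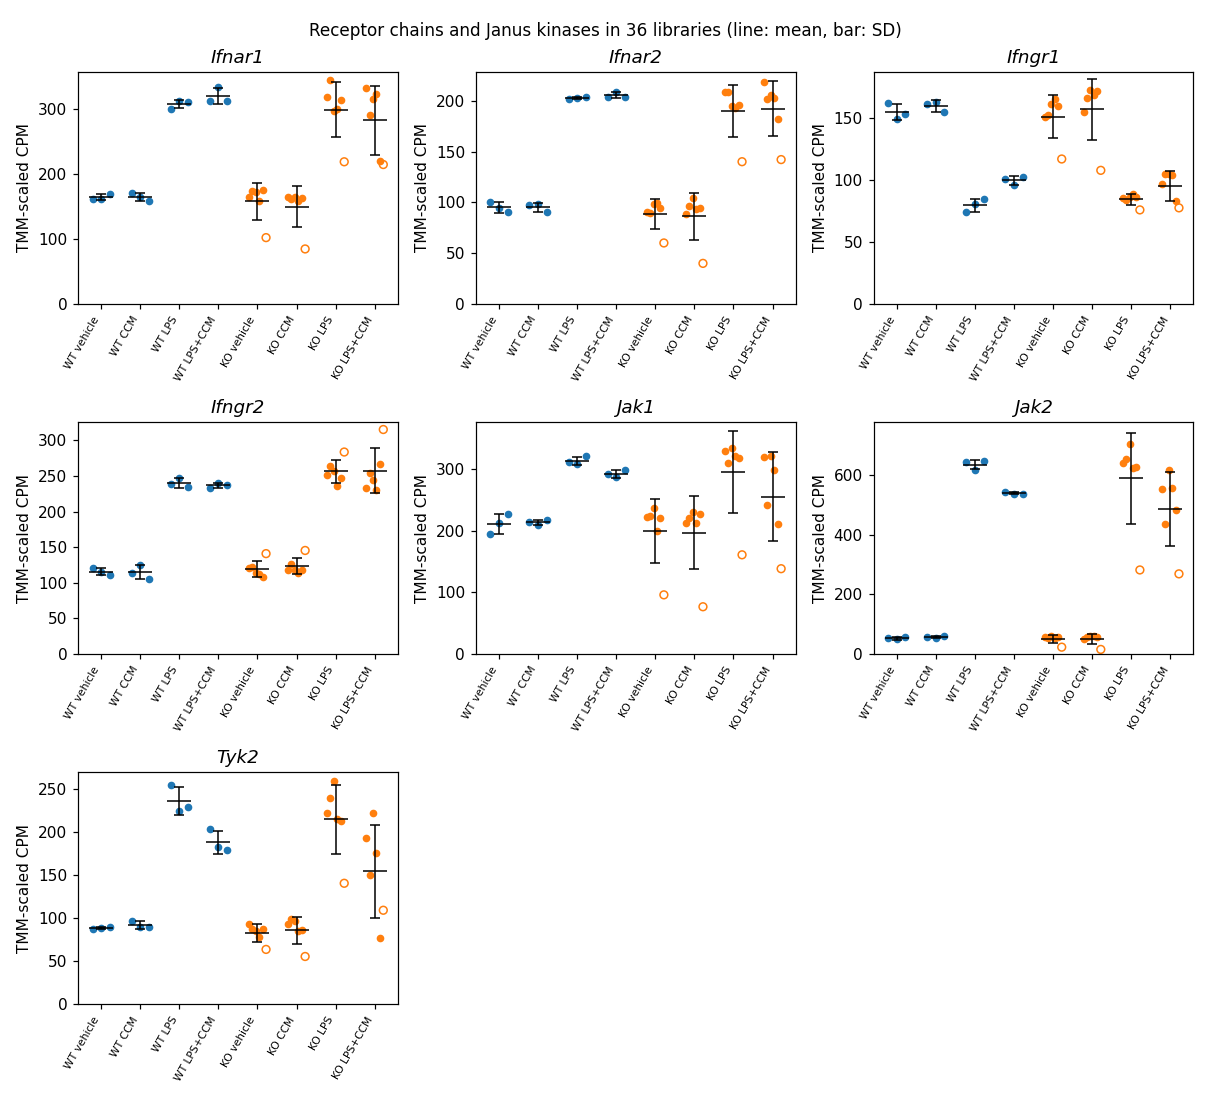
TMM-scaled CPM (vertical axis) of the receptor chains and kinases in 36 libraries by group, 1 point per library, with mean (line) and SD (bar), and KO replicate 6 as open circles. LPS group means stand above those of unstimulated groups except for Ifngr1, single KO libraries of Jak1 and Tyk2 overlap, and KO replicate 6 lies at or near the low end for the genes other than Ifngr2, where it is the highest KO value in each group.

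Whether CCM acted differently with and without LPS, or in the 2 genotypes, needs a test of the difference. In WT, Tyk2 passed the LPS by CCM interaction (log2 difference -0.40 ± 0.09 SE, edgeR adjusted p = 0.0416), while Jak2 (-0.33 ± 0.09, adjusted p = 0.0796) and Ifngr1 (0.26 ± 0.08, adjusted p = 0.111) did not. This is 1 of 8 members against 2.09% of genes called (1.62% lower). With library totals Tyk2 did not pass (-0.30, adjusted p = 0.108) and Ifngr1 did (0.36, adjusted p = 0.0276). With voom Jak2 passed (-0.33, adjusted p = 0.0452) and Tyk2 did not (-0.34, adjusted p = 0.0523). The Tyk2 call was lost without any 1 of 11 of the 12 WT libraries (adjusted p from 0.0574 to 0.113) and kept without WT LPS+CCM replicate 1. The term could not be estimated for Ifnb1, since both unstimulated groups were at 0 counts. In KO no member passed this interaction (background 0.00685%). For Ifnb1 the KO term could not decide, with 3 counts in KO vehicle and 0 in KO CCM. The genotype by CCM interaction under LPS passed for 0 members and 0% of genes, so no difference in the CCM effect between WT and KO was shown. It was 0.90 ± 0.60 for Ifnb1 (positive meaning a smaller fall in KO) and -0.17 ± 0.15 for Ifngr1, both at an adjusted p of 1.

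Genotype itself was the last comparison. No member passed the test of KO against WT with vehicle (7 tested) or with LPS (8 tested), and 0% of genes were called in either (edgeR). At an unadjusted p under 0.05 the count of members was 0 in both, and 0 with DESeq2 at the adjusted threshold. Log2 differences, KO minus WT, lay between -0.06 and 0.10 with vehicle and between -0.12 and 0.14 with LPS. The genotype by LPS interaction passed for 0 members, again with 0% of genes called. For Ifnb1 this term (-2.07 ± 1.41 SE) could not decide, since WT vehicle held 0 counts and KO vehicle 3. Since Arntl over all treatments together overlapped between the genotypes, with KO replicate 2 within the WT range, all comparisons with KO are of the labelled genotypes.

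The rest of the pathway was counted from lists for CCM under LPS. In WT 7.78% of all genes tested were called lower and 4.15% higher, the shares to set beside each list count. The lists were chosen with earlier results of these data known, so the counts are a description only. Among type I interferon targets all 15 genes measured were lower with CCM in WT (median log2 change -0.67, against 0.01 over all genes tested). Values that follow are log2 fold changes in WT from edgeR. They were -1.18 for Cxcl10 (a chemokine), -0.81 for Mx1, -0.81 for Cmpk2, -0.76 for Ifit2 and -0.73 for Rsad2 (viperin). The RNA sensors Ifih1 and Ddx58 were at -0.73 and -0.47. Mx2, Ifit3, Ifit1 and Irf7 were at -0.70, -0.67, -0.53 and -0.45. Isg15, Oas3, Oasl1 and Oas2 changed least (-0.43, -0.33, -0.26 and -0.22), and Oas2 was near the threshold (adjusted p = 0.0490).

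Among 9 type II interferon targets 5 were lower and 0 higher: Ciita (-1.20), which drives MHC class II genes, Cxcl9 (-1.03), Irf1 (-0.82), Gbp5 (-0.77) and Gbp2 (-0.43). Of the signal transducers, Stat2 (-0.32), Stat3 (-0.30) and Stat5a (-0.24) were lower, and Irf9 and Stat5b did not pass. Ifng itself, the only other interferon that passed the filter, was 0.574 ± 0.320 CPM with LPS+CCM and 1.36 ± 0.549 CPM with LPS in WT (SD, n = 3, adjusted p = 0.132). It was called lower with the replicate block and without a filter on low counts. The 14 Ifna genes held 9 counts in all 36 libraries together. Among the type I interferons of the list Ifnb1 was the one that passed the filter.

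Genes listed as restraining the receptors were mixed. Of 12, Cish (-1.03), Usp18 (-0.64, which displaces JAK1 from IFNAR2) and Isg15 were lower and Ptpn1 (0.24, a phosphatase of JAK2 and TYK2) was higher, and 8 did not pass. Of 15 genes that lead to Ifnb1, Irf7, Nfkb1 (-0.29) and Tbk1 (-0.25) were lower, Jun (0.49) was higher, and 11 did not pass, the LPS receptor Tlr4 among them. Isg15 and Irf7 are also among the type I targets, so their calls count in both lists. Of 6 tested genes that restrain Ifnb1, Il10 (-0.74) and Tnfaip3 (-0.32) were lower. Of 9 other chains and kinases 1 passed, Il2rg (-0.21, adjusted p = 0.0366), where 11.9% of all genes tested were called. With the replicate block, which applies to this comparison, more of these genes were lower: 6 negative regulators, 5 inducers, 5 restraining genes (and 1 higher) and 3 other chains and kinases. The block also called more genes over all, 3220 in place of 1621. Without WT LPS replicate 1, 4 restraining genes and 0 other chains and kinases were lower, and the latter were 3 with DESeq2 and 3 with voom. Leaving out 1 of several WT libraries ended the calls of Il2rg, Stat5a and Oas2, and leaving out WT LPS+CCM replicate 2 those of Tbk1 and Ptpn1. With library totals 14 type I and 5 type II targets were lower, and with all 36 libraries in 1 fit 0 and 1 were.

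In KO the same lists gave 1 call, Cxcl10 (log2 fold change -1.09 ± 0.13 SE, edgeR adjusted p = 0.00536), where 0.105% of genes were called lower. The median of the type I targets was -0.57 in KO and that of the type II targets -0.67, against 0.004 over all genes. These counts moved with the libraries and the test used. The call of Cxcl10 was lost without KO replicate 1, without KO replicate 2 and with all 36 libraries in 1 fit, each leaving 0 type I targets. DESeq2 called 6 type I and 3 type II targets lower, and voom 12 and 6. Without KO replicate 6, 7 type I and 2 type II targets were lower, and 5 and 1 without replicates 5 and 6. With a block on the number 13 and 5 were lower, though in this comparison not every pair of same-numbered libraries deviated together.

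Last, the genes whose pattern was most like each member were taken by Pearson correlation over the 8 group means of log2 CPM, among 15719 genes. They were Zc3h12a, Igsf6 and Lyn for Jak2, Aff1, Ptpn23 and Golga3 for Tyk2, and Trim14, Ptbp3 and Fbxo38 for Jak1. For the receptors they were Adgre1, Sipa1l1 and Adgrg6 (Ifnar1), Rab10, Mlx and Dck (Ifnar2), Dtx3, Bbs9 and Crat (Ifngr1), and Surf4, Aars and Batf (Ifngr2). For Ifnb1 they were Sbds, Gm28347 and Rab3ip. The correlations were 0.995 to 0.9999, over 8 means that share their libraries and differ mostly by LPS. No member was among the 3 likest genes of another, and over the 24 KO or the 12 WT libraries taken singly none of these genes was among the 3 again.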

How the data were processed

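The submitters' processing notes name fastp, HISAT2 2.0.5, featureCounts 1.5.0-p3 and mm10, and the authors deposited raw counts of reads per gene for 54532 genes in 36 libraries. Whether counting used strand is not given in the sources used here. Genes with too few counts were dropped with edgeR's filterByExpr (minimum count 10), and TMM factors, estimateDisp and glmQLFit/glmQLFTest (edgeR 4.0.16, R 4.3.3) were applied to the groups of each comparison, with Benjamini-Hochberg adjustment over all genes tested and a threshold of 0.05. The SE of a log2 fold change is its size over the square root of F. Alternatives were DESeq2 1.42.0, RLE factors, no filter, 1 fit of 36 libraries, voom with quality weights (limma 3.58.1), a replicate block and leaving out libraries. Library totals alone and the fits without KO replicates 5 and 6 were added after seeing the data. Scripts were tested on simulated data. Motifs were searched in RefSeq promoters.

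A gene of the signal transducer list is not reported here. The members and gene lists were chosen with earlier results of these data known. The rule named the members, the list genes called for CCM under LPS, and the 3 genes likest each member, and further list genes under LPS were named after their values were seen. Nothing in the labels says that a replicate number marks 1 mouse. Same-numbered libraries deviated together in every pair for LPS in KO (correlations 0.298 to 0.830), CCM alone in KO (0.337 to 0.844) and CCM under LPS in WT (0.151 to 0.360). No 2 libraries of a group agreed within counting noise (for the closest pair, chi-square over its degrees of freedom was 4.08). The study's legend gives the replicates as 3 WT and 6 KO female mice. The highest depth of a library was 28288923 counts, and for genes such as Ifnb1 counting error limits precision.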

Additional observations from a re-analysis of the deposited data

Results flagged for a closer look

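In KO replicate 6 several members stood apart from the other 5 libraries of their group, the gap to the nearest library taking a larger part of the group's range than Dixon's 95% value for 6 samples. Ifnar1 was 102 CPM with vehicle and 84.9 CPM with CCM. Ifnar2 was 60.04 CPM with vehicle, 40.0 CPM with CCM and 140.0 CPM with LPS. Ifngr1 was 117 CPM with vehicle and 108 CPM with CCM. Jak1 was 96.1, 76.9 and 161 CPM and Jak2 was 23.4, 15.8 and 282 CPM in the same 3 treatments, and Tyk2 was 55.5 CPM with CCM. All of these values were low. They make up 14 of the 15 outlying values among 31 groups of 6 examined, where chance flags about 1 in 20 groups. The same libraries were low over all genes of 5000 bases or more (median log2 deviation -0.81 to -0.49), and the part of gene length in each value was not tested. The remaining outlying value was Ifnb1 in KO vehicle replicate 4, at 0.0961 CPM from 3 counts, where the other 5 libraries had 0.

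The effect of CCM on Tyk2 in WT differed with and without LPS (log2 difference -0.40, edgeR adjusted p = 0.0416), a call that leaving out any 1 of 11 WT libraries ended, as did voom (adjusted p = 0.0523) and library totals (0.108).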

How the results depend on the processing

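All 8 members kept their direction for LPS in both genotypes under every alternative run. Of the 8 calls in WT, that of Jak1 was lost with all 36 libraries in 1 fit (log2 fold change 0.59, adjusted p = 0.125), and in KO that of Jak1 without a filter (0.0763), with library totals (0.590) or without any 1 of replicates 1 to 5. For CCM under LPS in WT the count of 4 fell to 0 with all 36 libraries in 1 fit, and in KO it was 1 rather than 0 with voom (Ifngr1, 0.21, adjusted p = 0.0323). The LPS by CCM interaction in WT called 3 members with DESeq2, 2 without a filter, 0 with all 36 libraries, 2 with the replicate block (Tyk2, adjusted p = 0.0108, and Jak2, 0.0276) and 0 to 1 without 1 library, against 1. With voom it was 1, Jak2 in place of Tyk2. Signs turned only near 0. Ifngr2 under LPS and CCM in WT was 0.068 with library totals and -0.030 to 0.0054 without 1 library, and in KO 0.0030 with library totals. Ifnar2 in KO was 0.0049 with all 36 libraries, 0.031 with voom, 0.024 with library totals, 0.040 without KO replicates 5 and 6, and -0.027 to 0.010 without 1 replicate. The cause of these changes was not tested. No other member's call changed with the replicate block.

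Counts over all genes moved by more than 1.5 times: for CCM under LPS in WT from 1621 to between 17 and 3220, in KO from 15 to between 0 and 777, for CCM alone in WT from 8 to between 0 and 377 and in KO from 0 to between 0 and 429, for LPS in WT from 9139 to between 5644 and 10611 and in KO from 6433 to between 5429 and 9774, and for the LPS by CCM interaction in WT from 308 to between 0 and 721 and in KO from 1 to between 0 and 100. KO against WT gave at most 1 gene with vehicle or with LPS. Same-numbered libraries did not all deviate together for LPS in WT (correlations 0.0469 to 0.173, 3 of 3 best with their own number), CCM alone in WT (0.0511 to 0.466, 2 of 3), CCM under LPS in KO (-0.100 to 0.810, 4 of 6) or KO against WT (-0.134 to 0.239 with vehicle, -0.167 to 0.0784 with LPS), so the block there is only a check. Ifnb1 rests on 20 counts in WT LPS+CCM, and counting error limits it most among the members.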
